A study of Mus musculus with 2 samples.

Results

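A set of 10 genes of the thymic chemokine system is described here on 2 microarrays of cortical thymic epithelial cells (cTECs), one from mice that make Aire in the thymic cortex and one from control mice. The genes were taken by name from a list of 7 chemokine ligands (Ccl25, Cxcl12, Ccl19, Ccl17, Ccl22, Xcl1 and Cxcl16) and 3 scavenger receptors (Ackr2, Ackr3 and Ackr4), and matched to the gene symbols of the platform annotation. All 10 were found among 19938 genes with a probe set of their own. They had 15 probe sets in all, and 0 probe sets annotated to several genes included one of them.

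The Tg array held RNA of cTECs from Aire transgenic mice on the NOD background, a strain prone to autoimmune diabetes. In this semi-knockin strain the promoter of β5t, the cortex-specific subunit of the thymoproteasome encoded by Psmb11, drives Aire, so the transgene is made only where that promoter is active. The non-Tg array held RNA of the same cell type from control mice. Both source groups were NOD mice at day 7, and the source labels name 7 Tg and 5 non-Tg, read here as animals pooled for 1 array each. The labels give neither the way the cells were isolated nor the number of founder lines. Each group has a single array, so differences could not be set against a spread between replicates, and no p-value was computed.

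Chemokines draw developing T cells into the thymus and from the cortex to the medulla. Signalling receptors on thymocytes read these gradients, while atypical chemokine receptors bind and internalise the ligands without the usual G protein signal and so shape the gradients. Cortical epithelium is known as a source of CCL25 and CXCL12 and as a site of ACKR4. The ligands of CCR4 and CCR7, and XCL1, are known mainly as products of the medulla, where lower levels have been described in mice that lack Aire.

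Of the 10 genes, 0 were 2-fold higher and 0 were 2-fold lower on the Tg array. Of the 10, 6 passed a level filter, which required a gene to reach the array's median over probe sets on 1 or both arrays (a log2 level of 5.43 on the Tg array and 5.45 on the non-Tg array). Among all 11422 genes past that filter, 0.797% were at least 2-fold higher and 0.376% at least 2-fold lower in Tg. At 1.5-fold, a log2 ratio of 0.58, the counts for the 10 genes were again 0 and 0, beside 4.74% higher and 3.13% lower among all genes past the filter. The log2 ratio, Tg minus non-Tg, had a median of 0.09 over the 6 genes past the filter, beside 0.01 over all genes past it, and of 0.12 over all 10 genes. With so few genes a count of 0 is what the background share gives, and it is read as no more than that.

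The error of a single ratio could be estimated only within the arrays. For 658 genes, 2 or more probe sets were past the filter, and the difference between the ratios of the brightest 2 corresponds to an SD of 0.302 per probe set. Animals, pools and amplifications do not vary within an array, so the full error can be larger. The pairs mix near-identical probe sets, such as those of Ccl19, with probe sets of different transcripts, such as those of Ccl25. A single SD was used for all levels. The ratios of 7 of the 10 genes lay within 0.302 of 0 and those of 3 (Ccl17, Ccl22 and Ackr4) lay above it. Of all genes past the filter, 29.7% had a ratio wider than 0.302 in either direction. Of the 6 listed genes past the filter, only Ackr4 did. Ccl17, Ccl22, Ackr2 and Ackr3 did not pass the filter, while the SD was taken from probe sets past it.

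**Figure D1:**
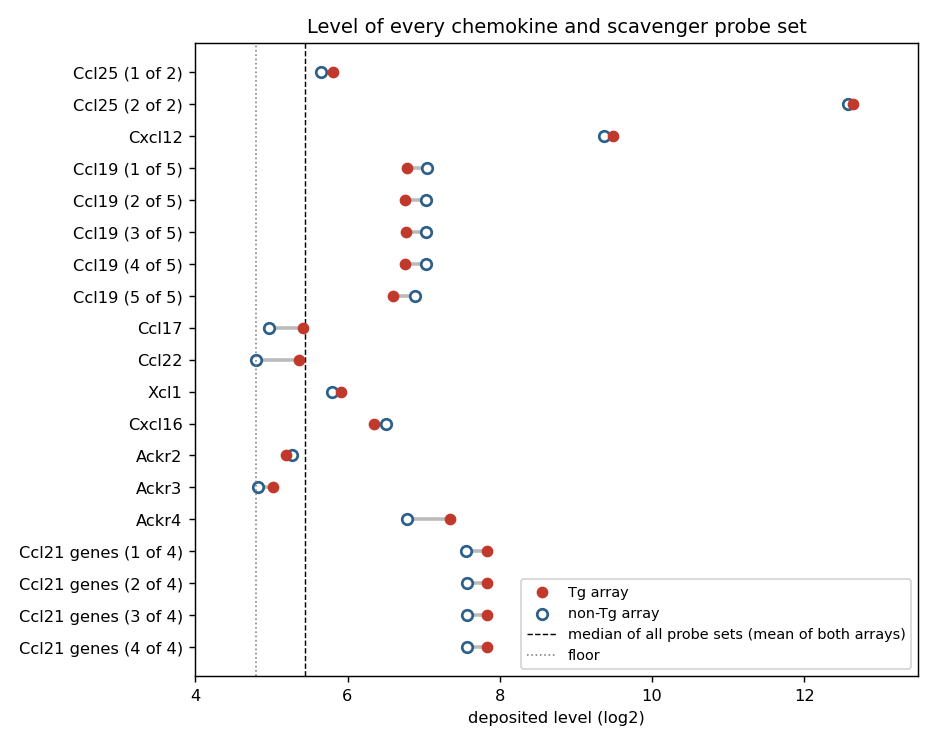
Deposited log2 level (horizontal axis) of each probe set of the 10 genes, and of 4 probe sets shared by the Ccl21 genes, on the Tg array (filled red points) and the non-Tg array (open blue points). The 5 Ccl19 probe sets lie lower in Tg and the 4 Ccl21 probe sets higher, and the widest gaps are those of Ackr4, Ccl22 and Ccl17; each point is 1 array, so there are no error bars.

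Ccl25 and Cxcl12, the ligands best known from the cortex, had nearly the same level on both arrays. Ccl25, which attracts thymocytes through CCR9, was read by 2 probe sets. One was annotated to both coding and non-coding RefSeq transcripts. It had a log2 level of 12.64 on the Tg array and 12.58 on the non-Tg array, a ratio of 0.06. The other, annotated to a non-coding RefSeq transcript and a cDNA clone but to no coding RefSeq transcript, read 5.81 in Tg and 5.65 in non-Tg, a ratio of 0.16. Only 15 genes, Ccl25 included, lay within 0.25 of the mean level of the probe set with coding transcripts. Of these, 4 had a ratio at least as wide, Ccl25 itself among them. Both Ccl25 ratios were above 0 and below the within-array SD, and levels of different probe sets are not comparable with each other.

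RefSeq (GRCm38.p6) gives Ccl25 a pair of annotated starts on chromosome 8, and the window around each start, from 250 bases before it to 50 after, is shown because the gene has 2 probe sets with different annotated transcripts. Which start each probe set reports on is not stated in the annotation. The first window (chr8:4324960-4325259, plus strand) has a GC content of 74%, and the second (chr8:4349338-4349637, plus strand) has 51.7%. Capitals mark the TATA motif TATAAA, searched on both strands.
Ccl25 upstream start: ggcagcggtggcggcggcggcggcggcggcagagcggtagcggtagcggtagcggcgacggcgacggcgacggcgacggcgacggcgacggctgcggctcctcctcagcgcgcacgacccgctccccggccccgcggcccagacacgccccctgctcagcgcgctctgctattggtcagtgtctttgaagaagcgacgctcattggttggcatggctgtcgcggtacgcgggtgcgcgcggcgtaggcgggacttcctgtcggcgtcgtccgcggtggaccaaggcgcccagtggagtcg
Ccl25 downstream start: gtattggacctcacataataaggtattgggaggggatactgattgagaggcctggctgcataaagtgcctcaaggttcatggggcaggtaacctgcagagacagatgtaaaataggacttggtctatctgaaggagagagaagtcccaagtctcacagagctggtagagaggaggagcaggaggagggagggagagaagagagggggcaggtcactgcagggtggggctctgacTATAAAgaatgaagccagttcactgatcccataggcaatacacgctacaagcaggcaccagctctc
The downstream window holds 1 match and the upstream window 0. Of all 32851 windows of the same length searched, 13.6% hold the motif.

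Cxcl12, the ligand of CXCR4 that retains early thymocytes in the cortex, had 1 probe set with a log2 level of 9.49 on the Tg array and 9.37 on the non-Tg array, a ratio of 0.12. Within 0.25 of its mean level, 58.7% of 225 genes had a ratio at least as wide. Its scavenger Ackr3, which takes up CXCL12 and CXCL11, did not pass the filter, at 5.02 in Tg and 4.82 in non-Tg (ratio 0.20). The non-Tg value of Ackr3 lay close to the floor of 4.80, and values under the floor were raised to it. Neither value of Ackr3 was raised, though ratios at such low levels can be compressed. At its level, 521 of 4334 genes had a ratio at least as wide. Comparison genes with values under the floor had their ratios narrowed, which lowers this count.

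The ligands of CCR7, which guides selected thymocytes into the medulla, did not point one way. Ccl19 was read by 5 probe sets, all annotated to the same transcripts. Their log2 levels ran from 6.60 to 6.78 in Tg and from 6.88 to 7.05 in non-Tg, with ratios between -0.28 and -0.27. The ranges of the arrays did not overlap, but all 5 probe sets were hybridised with the same pair of RNA samples, and the Ccl19 locus has near-identical copies in mouse, so they are 1 measurement and not 5. Around the level of the brightest of them, 42.7% of 1376 genes had a ratio at least as wide.

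The Ccl21 genes, which are not on the list but encode the other CCR7 ligand, were covered by 4 probe sets, each annotated to the same 7 gene symbols. These ran from 7.830 to 7.831 in Tg and from 7.563 to 7.566 in non-Tg, with ratios of 0.26 to 0.27. The signs of Ccl19 and of the Ccl21 probe sets were thus opposite, and each ratio was smaller than the within-array SD of 0.302. Ccr7 itself had 6.55 in Tg and 6.78 in non-Tg, a ratio of -0.23.

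Ackr4 and Ccl22 had the widest ratios of the 10 genes, 0.57 and 0.56 as deposited, and under quantile normalization their order turned (0.535 for Ackr4 and 0.5735 for Ccl22). Ackr4 encodes the scavenger of CCL19, CCL21 and CCL25, and its 1 probe set had a log2 level of 7.35 on the Tg array and 6.78 on the non-Tg array, a ratio of 0.57 or 1.49-fold. That was short of 1.5-fold, and 11.7% of the 1293 genes within 0.25 of its mean level had a ratio at least as wide. Its promoter window (chr9:104126594-104126893, minus strand, RefSeq GRCm38.p6) is shown because Ackr4 had the widest ratio among the genes past the filter, with the TATAAA match in capitals.
Ackr4: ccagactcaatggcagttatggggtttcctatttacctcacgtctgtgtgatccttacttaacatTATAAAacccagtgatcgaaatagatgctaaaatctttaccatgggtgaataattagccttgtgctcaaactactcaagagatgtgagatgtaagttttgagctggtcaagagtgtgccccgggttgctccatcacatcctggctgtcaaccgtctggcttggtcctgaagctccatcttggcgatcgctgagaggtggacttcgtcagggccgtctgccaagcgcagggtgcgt
The match lies upstream of where a TATA box is usually placed, and is a match of letters only.

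Its ligands had ratios of 0.06 (Ccl25), -0.27 (Ccl19) and 0.26 to 0.27 (Ccl21 genes), so no common direction with Ackr4 was seen. Ackr2, the scavenger of inflammatory CC chemokines including CCL17 and CCL22, did not pass the filter, at 5.19 in Tg and 5.27 in non-Tg (ratio -0.07), and 68.2% of 3901 genes around its level had a ratio at least as wide. The 3 scavenger genes therefore had ratios of 0.57, 0.20 and -0.07, and only Ackr4 was past the filter.

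**Figure D2:**
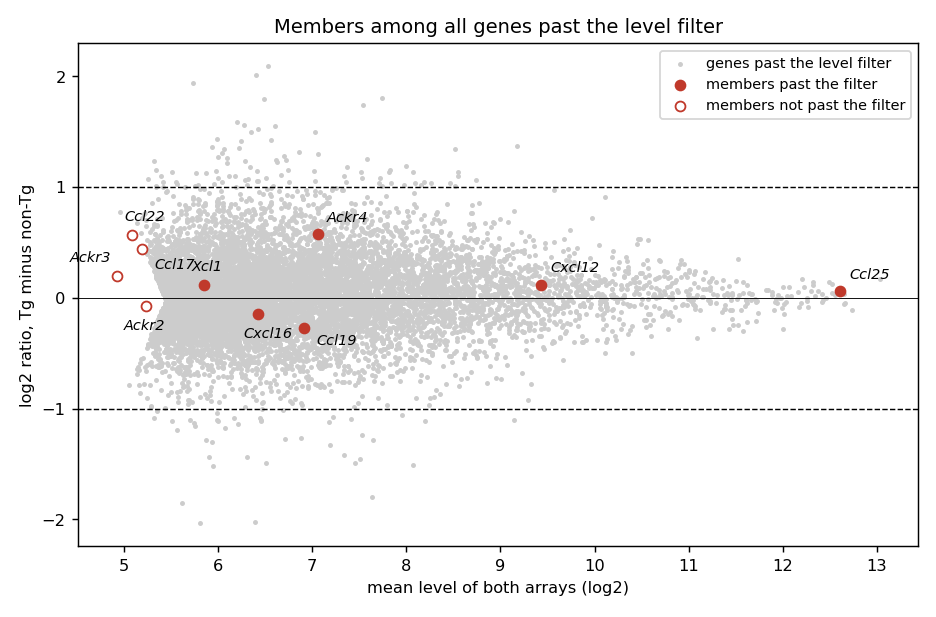
Log2 ratio, Tg minus non-Tg (vertical axis), against the mean log2 level of both arrays (horizontal axis) for 11422 genes past the level filter (grey) and the 10 genes (red, open where not past the filter). Dashed lines mark 2-fold; all 10 lie between them, with Ackr4 at 0.57 and Ccl22 at 0.56 the highest and Ccl19 at -0.27 the lowest.

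Ccl17 and Ccl22 both encode ligands of CCR4, and both were read higher on the Tg array without passing the filter. Ccl17 had a log2 level of 5.41 on the Tg array and 4.97 on the non-Tg array, a ratio of 0.44 or 1.36-fold. Ccl22 had 5.36 in Tg and 4.80 in non-Tg, a ratio of 0.56 or 1.48-fold, its non-Tg value lying at the floor to 2 decimals. Within 0.25 of the mean level of Ccl17, 3.49% of 3958 genes had a ratio at least as wide. Around that of Ccl22, 1.04% of 4044 genes did. Neither gene had a value under the floor, while comparison genes with such values had their ratios narrowed. That lowers the shares, so they do not show that the pair stands out. These shares describe 1 pair of arrays, at levels where values are bounded below. With the floor raised to the 40th percentile of all values, the ratios were 0.26 and 0.21.

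The pair lies in one cluster on chromosome 8, and their promoter windows are shown because the genes are neighbours that were read in the same direction (Ccl22 at chr8:94745434-94745733 and Ccl17 at chr8:94810203-94810502, both on the plus strand of GRCm38.p6, from RefSeq).
Ccl22: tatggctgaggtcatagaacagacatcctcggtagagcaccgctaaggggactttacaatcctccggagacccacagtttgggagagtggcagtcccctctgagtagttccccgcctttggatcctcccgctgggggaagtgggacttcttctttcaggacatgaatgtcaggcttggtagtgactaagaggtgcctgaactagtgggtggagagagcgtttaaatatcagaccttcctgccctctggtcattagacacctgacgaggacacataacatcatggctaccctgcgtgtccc
Ccl17: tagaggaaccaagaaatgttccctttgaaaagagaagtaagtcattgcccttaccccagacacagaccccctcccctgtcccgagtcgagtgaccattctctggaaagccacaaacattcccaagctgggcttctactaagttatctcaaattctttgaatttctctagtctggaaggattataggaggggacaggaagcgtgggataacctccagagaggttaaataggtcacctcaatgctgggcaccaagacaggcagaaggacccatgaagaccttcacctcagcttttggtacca
No letters are in capitals, since neither TATAAA nor the NF-kB consensus, both searched on both strands, was found in these windows. The NF-kB consensus is present in 4.51% of all windows, and among the 10 windows of the listed genes (9 genes had one) it was present in 1, that of Ackr2. The chemokine gene that RefSeq places between them, Cx3cl1, had 5.82 in Tg and 5.74 in non-Tg (ratio 0.07), and the next gene beyond Ccl17, Ciapin1, had 6.00 in Tg and 6.34 in non-Tg (ratio -0.35). The ratio of Cx3cl1 was thus above 0, like those of the pair but smaller, and that of Ciapin1 was below 0.

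CCL17 and CCL22 are also products of dendritic cells. Of 15 measured macrophage and dendritic cell markers, 4 passed the filter, with ratios above 0 for Sirpa (0.69) and Flt3 (0.38) and below 0 for C1qa (-0.31) and Tyrobp (-0.58). The 15 markers ranged from 4.58 to 7.82 in Tg and from 4.63 to 7.13 in non-Tg, with a median ratio of 0.04. Of the 15 ratios, 9 lay above 0, as those of Ccl17 and Ccl22 did, 2 below 0 and 4 at 0. Of all 19938 genes, 7780 lay above 0, 8420 below and 3738 at 0. Among the 9 markers above 0, Lyz2 (0.36, with its non-Tg value under the floor) and Cd68 (0.33) did not pass the filter. Neither did Csf1r (0.05), Adgre1 (0.04), Fcer1g (0.02), Siglech (0.08) and Xcr1 (0.07). Itgax, Itgam and Clec9a lay under the floor on both arrays, and Xcr1 had 4.87 on the Tg array and 4.73 on the non-Tg array. The part of such cells in the values of Ccl17 and Ccl22 was not tested.

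Xcl1, which attracts XCR1-bearing dendritic cells to the medulla and is known to depend on Aire there, had nearly equal values. Its 1 probe set had a log2 level of 5.91 on the Tg array and 5.80 on the non-Tg array, a ratio of 0.11, and 63.4% of the 2765 genes around its level had a ratio at least as wide. Cxcl16, a transmembrane chemokine for CXCR6-bearing cells such as natural killer T cells, had 6.35 in Tg and 6.50 in non-Tg, a ratio of -0.15, and 61.2% of 1842 genes around its level had one at least as wide. Neither ratio exceeded the within-array SD.

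The receptors that read these ligands gave small ratios. Cxcr4 had 8.95 in Tg and 8.96 in non-Tg (ratio -0.01), and Ccr9, the CCL25 receptor, had 7.53 in Tg and 7.55 in non-Tg (ratio -0.02). Ccr4 lay under the floor on both arrays. Cxcr6 had 4.65 on the Tg array and 4.88 on the non-Tg array, and neither it nor Xcr1 passed the filter. Of the 6 partner receptors 3 passed, and 0 of these were 2-fold apart. Cxcr4, Ccr9 and Ccr7 are known from thymocytes, whose markers were clearly present. Of 12 measured thymocyte markers 11 passed the filter, with ratios from -0.49 to 0.21, 3 of them above 0 and 8 below. Of all 11422 genes past the filter, 5778 lay above 0 and 5531 below. In pooled bulk RNA, fewer cells of a type and less RNA per cell cannot be told apart.

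**Figure D3:**
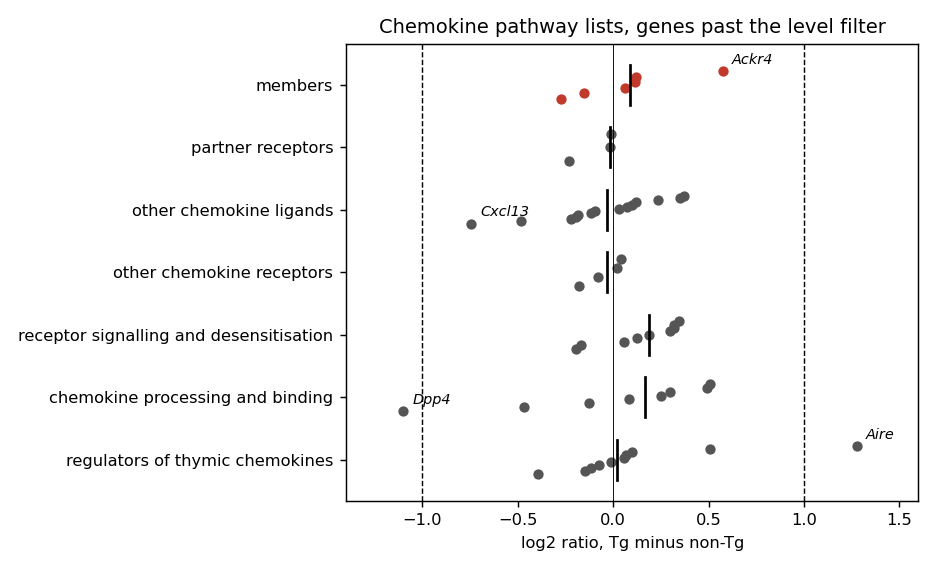
Log2 ratio, Tg minus non-Tg (horizontal axis), of the genes past the level filter in the 10-gene list (red) and in 6 lists of related genes (grey); each point is 1 gene, vertical bars are list medians and dashed lines mark 2-fold. Dpp4 at -1.10 and Aire at 1.28 are the points beyond 2-fold.

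Across the wider pathway, 79 genes of 6 lists were measured and 48 passed the filter. Of these 48, 1 was 2-fold higher in Tg, Aire, and 1 was 2-fold lower, Dpp4, beside 0.797% higher and 0.376% lower among all genes past the filter. The higher gene is the one that the transgene encodes, and the part of endogenous Aire in its 1 probe set was not tested. The median ratio of the 48 was 0.04. Aire had 7.33 in Tg and 6.06 in non-Tg, a ratio of 1.28. Dpp4 encodes a cell-surface peptidase that trims and inactivates CXCL12 and also cuts CCL22. Its 1 probe set had 5.44 in Tg and 6.53 in non-Tg, a ratio of -1.10, and 1.04% of 2501 genes around its level had a ratio at least as wide. The Tg value lay just above the filter threshold of 5.43. Of the 8 measured genes of chemokine processing and binding, 5 had ratios above 0 and 3, Dpp4 among them, below. All 8 passed the filter, among whose 11422 genes 5778 lay above 0 and 5531 below. The sheddases of CXCL16 were among the 5. Adam17 had 7.92 in Tg and 7.42 in non-Tg (ratio 0.51). Adam10 had 8.21 in Tg and 7.91 in non-Tg (ratio 0.30, within the SD of 0.302). Mmp9 (0.49), Mmp2 (0.25) and Sdc1 (0.08) were also above 0, and Ext1 (-0.46) and Sdc4 (-0.13) were below. Over all genes past the filter, the 90th percentile of the ratio without its sign was 0.53.

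Of 29 other chemokine ligands measured, 14 passed the filter, 7 with ratios above 0 and 7 below, and 0 were 2-fold apart. The lowest was Cxcl13, the ligand of CXCR5, at 6.58 in Tg and 7.33 in non-Tg (ratio -0.74). It was beyond 1.5-fold, and 5.13% of 1346 genes around its level had a ratio at least as wide. The highest was Ccl28, a mucosal chemokine, at 5.68 in Tg and 5.31 in non-Tg (ratio 0.37). Of 15 other chemokine receptors measured, 4 passed the filter, with ratios from -0.18 for Ccrl2, an atypical receptor-like protein, to 0.04 for Ccr10.

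In the list of receptor signalling and desensitisation, 11 genes were measured, 9 of them passed the filter, and 0 were beyond 2-fold. Of the 9, 7 had ratios above 0, with a median of 0.19, beside 5778 of all 11422 genes past the filter (median 0.01). The highest of the 9 was Rgs2, a regulator of G protein signalling, at 8.54 in Tg and 8.19 in non-Tg (ratio 0.34). The lowest of the 9 was Rgs16 of the same family, at 6.73 in Tg and 6.93 in non-Tg (ratio -0.20). The arrestin genes, which serve the internalisation of chemokine receptors, had ratios of 0.32 (Arrb1 and Arrb2 alike). Of the 10 regulators of thymic chemokines, all past the filter, 9 lay within 2-fold. Their ratios, Aire included, were above 0 for 5 and below for 5, with a median of 0.02. Ltbr, which encodes the lymphotoxin beta receptor, had 6.68 in Tg and 6.18 in non-Tg (ratio 0.51). Tnfrsf11a, which encodes RANK, had 5.74 in Tg and 6.14 in non-Tg (ratio -0.39). Relb (-0.01), Nfkb2 (0.06) and Cd40 (-0.15) had narrower ratios. Foxn1, the epithelial regulator known to drive Ccl25, had a ratio of 0.07.

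Marker lists were used to describe the samples, and passing the filter does not show cell identity, since 11 of 12 thymocyte markers passed too. All 15 measured cTEC markers passed the filter, with ratios from -0.31 to 0.48 and a median of 0.10, 14 of them above 0 and 1 below. Of all 11422 genes past the filter, 5778 lay above 0 and 5531 below. Of 11 measured medullary markers 7 passed, with ratios from -0.39 to 1.28, 5 of them above 0 and 2 below. The 1 beyond 2-fold was Aire, which the transgene encodes. The part of medullary cells in the values above was not tested. Fibroblast markers (6 of 9 past the filter, ratios from -0.59 to 0.51) and endothelial markers (6 of 8, from -0.25 to 0.48), from cells that also make CXCL12 and ACKR3, and B cell markers (2 of 5, from -0.36 to -0.04) were measured on both arrays, and their part in the values above was not tested.

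**Figure D4:**
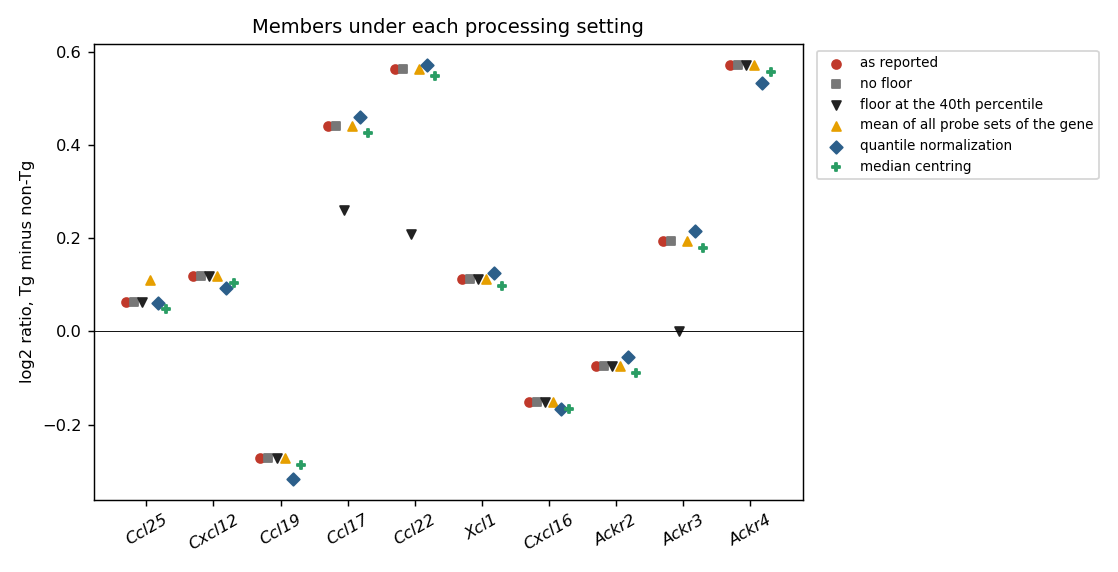
Log2 ratio, Tg minus non-Tg (vertical axis), of each of the 10 genes as reported (red circles) and under 5 other processing settings (other symbols). The sign of each gene is the same under all settings drawn, except Ackr3, which is 0 with the floor at the 40th percentile; Ccl17 and Ccl22 move to 0.26 and 0.21 with that floor.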

How the data were processed

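The authors deposited a table of log2 values for 28856 probe sets on 2 arrays; the log2 scale was inferred from the range, 4.22 to 13.70 in Tg and 4.22 to 13.65 in non-Tg. Per the labels' protocols, total RNA was column-purified, picogram amounts were amplified as cDNA (Ovation One-Direct), and the product was fragmented and biotin-labelled. The authors' background correction, scaling and summarisation, and the build, are not stated in the labels or the file. Amplifying so little RNA can raise the error of scarce transcripts, and values bounded below compress their ratios.

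Genes were named from GEO's platform annotation, in which 21789 probe sets had 1 symbol. For each gene the probe set with the highest mean was taken. Values under the 25th percentile of all values (4.80) were raised to it before subtraction. With 1 array per group a rule of size replaced a test. The 10 genes, the related lists and the cell type markers were chosen with earlier results of these data known. All 10 genes were named, and of each related list the genes beyond 2-fold or, without any, the highest and lowest; other genes were named after their values were seen. The shares of genes of similar level were likewise added after the values were seen. They use ratios after the floor, and each count includes the gene itself. The table held 0 columns of other samples. Alternatives were other floors, filters, folds, scalings and the mean of probe sets. Python 3.11.15, numpy 2.4.6, pandas 2.3.3 and matplotlib 3.10.9 were used.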

Additional observations from a re-analysis of the deposited data

How the results depend on the processing

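Of 50 values of the 10 genes under other settings (no floor, a floor at the 40th percentile, the mean of all probe sets, quantile normalization and median centring), 49 moved by less than the within-array SD of 0.302. The exception was Ccl22, at 0.21 with the higher floor, which follows from raising its non-Tg value. No sign turned, and Ackr3 was at 0.00 with that floor. Scaling moved the median of all genes past the filter to -0.003 (quantile normalization) and -0.009 (median centring), beside 0.006 as deposited. The counts of the 10 genes beyond 2-fold were 0 and 0 under every setting run, and their median ran from 0.07 to 0.12. With the 1.5-fold rule in place of 2-fold, 541 genes were higher and 357 lower in Tg, against 91 and 43, and 2 pathway genes were lower against 1. The ratio of Dpp4 ran from -1.11 to -1.10 over 6 settings. No paired analysis was possible because each group has 1 array. The number of arrays limits the precision, and for Ccl17, Ccl22, Ackr2 and Ackr3 the level does too.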
